A study of Mus musculus with 8 samples.

Results

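The C/EBP genes described here are *Cebpa*, *Cebpb*, *Cebpd*, *Cebpe*, *Cebpg* and *Cebpz*, together with *Ddit3*, which encodes the C/EBP homologous protein CHOP. They were taken by gene symbol, 7 of the 23356 genes in the deposited table, and all 7 were among the 11397 genes that reached 1 FPKM (fragments per kilobase of transcript, scaled to sequencing depth) in at least 1 group. RNA came from dendritic cells grown out of mouse bone marrow with GM-CSF and IL-4 (BMDCs), from wild-type (WT) mice or from mice lacking *Arhgef2* in the germline (*Arhgef2*-/-, called GEF-H1-/- after the protein, or knockout), both on a C57BL/6N background by the study's methods (C57BL/6 in the labels). Cells were left untreated (control) or were given 100 nM ansamitocin-P3 (AP3), a drug that depolymerises microtubules, for 5 h. Each of the 4 groups had 2 libraries, 8 in all. *Arhgef2* encodes GEF-H1, a RhoA exchange factor held inactive on microtubules, and the design asks which part of the drug response needs it.

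The table holds 1 FPKM per gene and group, in which Cuffdiff combined both libraries, with the bounds of a 95% interval and no values per library. No test between groups could be made, and the labels do not say whether the duplicates came from separate animals. A gene was counted as changed when the log2 ratio of FPKM + 1 was over 1 or under -1, and the intervals of Cuffdiff are given as the error. *Arhgef2* had 42.3 and 45.9 FPKM in control and AP3-treated WT DCs and 4.59 and 4.16 FPKM in the corresponding knockout DCs. Among 10 dendritic cell markers, all were over the filter, and their summed FPKM lay between 4214 and 6570 over the 4 groups. *Cd74* made up most of each sum (3073 to 4935 FPKM), so the sums do not describe the other markers. *Flt3* and *Cd209a* reached at most 2.63 and 3.30 FPKM. FPKM added up over the whole table to 739523 in AP3-treated WT DCs but to 609360 in control WT, 599331 in control knockout and 617423 in AP3-treated knockout DCs, so rescaling to equal sums moved the median log2 change of all genes from 0.00 to -0.24 in WT DCs. In that scaling the median of knockout minus WT DCs under AP3 moved from -0.03 to 0.20, and the median of the genotype difference in the AP3 change from -0.01 to 0.19. Rescaling to the median ratio over genes instead changed little. The ratios to control WT were 1.001 in AP3-treated WT, 0.993 in control knockout and 0.995 in AP3-treated knockout DCs. The median change in WT DCs stayed at 0.00, with 414 rises and 146 falls called, against 417 and 146 on the deposited scale.

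C/EBP proteins are basic leucine zipper (bZIP) transcription factors that bind DNA as dimers with each other or with other bZIP proteins. In myeloid cells, C/EBPα drives the step from progenitor to granulocyte and monocyte, C/EBPε drives the later stage of granule formation, and C/EBPβ and C/EBPδ act in inflammatory and emergency responses. C/EBPγ lacks a strong activation domain. Both C/EBPγ and CHOP act as dimers with other bZIP proteins, in part in the response to amino acid shortage and protein stress. *Cebpz* shares the name but encodes a CCAAT-binding and ribosome assembly protein that is not a bZIP factor.

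*Cebpb* was the most abundant member in every group and the member that changed with the drug. Its level was 92.2 FPKM in control WT, 305 FPKM in AP3-treated WT, 137 FPKM in control knockout and 187 FPKM in AP3-treated knockout DCs. The AP3-treated WT value was the highest and the control WT value the lowest, with both knockout values between them. In WT DCs *Cebpb* rose 3.31-fold, a log2 change of 1.72, which placed it at rank 123 among the rises. In knockout DCs the log2 difference was 0.45, a ratio of 1.37, and did not reach the threshold. The AP3 change was lower in knockout than in WT DCs by a log2 difference of -1.26, past the threshold. Of the 7 genes, 1 was called in WT DCs, beside 4.94% of all genes tested. None was called in knockout DCs, beside 1.08% of all genes, and 1 was called for the difference between genotypes, beside 1.9%.

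The intervals of *Cebpb* need a separate statement, because its deposited FPKM lay above the upper bound of its own interval in all 4 groups. The bounds were 51.9 to 83.8 FPKM in control WT, 155 to 248 in AP3-treated WT, 73.5 to 118 in control knockout and 101 to 162 FPKM in AP3-treated knockout DCs. This was found for 93 of the genes tested, 0.816%. The WT intervals before and after AP3 did not overlap, which held for 1 of the 7 genes and for 16.8% of all genes tested. With the interval midpoints in place of the FPKM, the log2 change of *Cebpb* was 1.55 in WT and 0.45 in knockout DCs, and the difference between them was -1.10. Rescaled to equal sums of FPKM, these values were 1.44, 0.41 and -1.03, with the median of all genes shifted as given above.

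**Figure D1:**
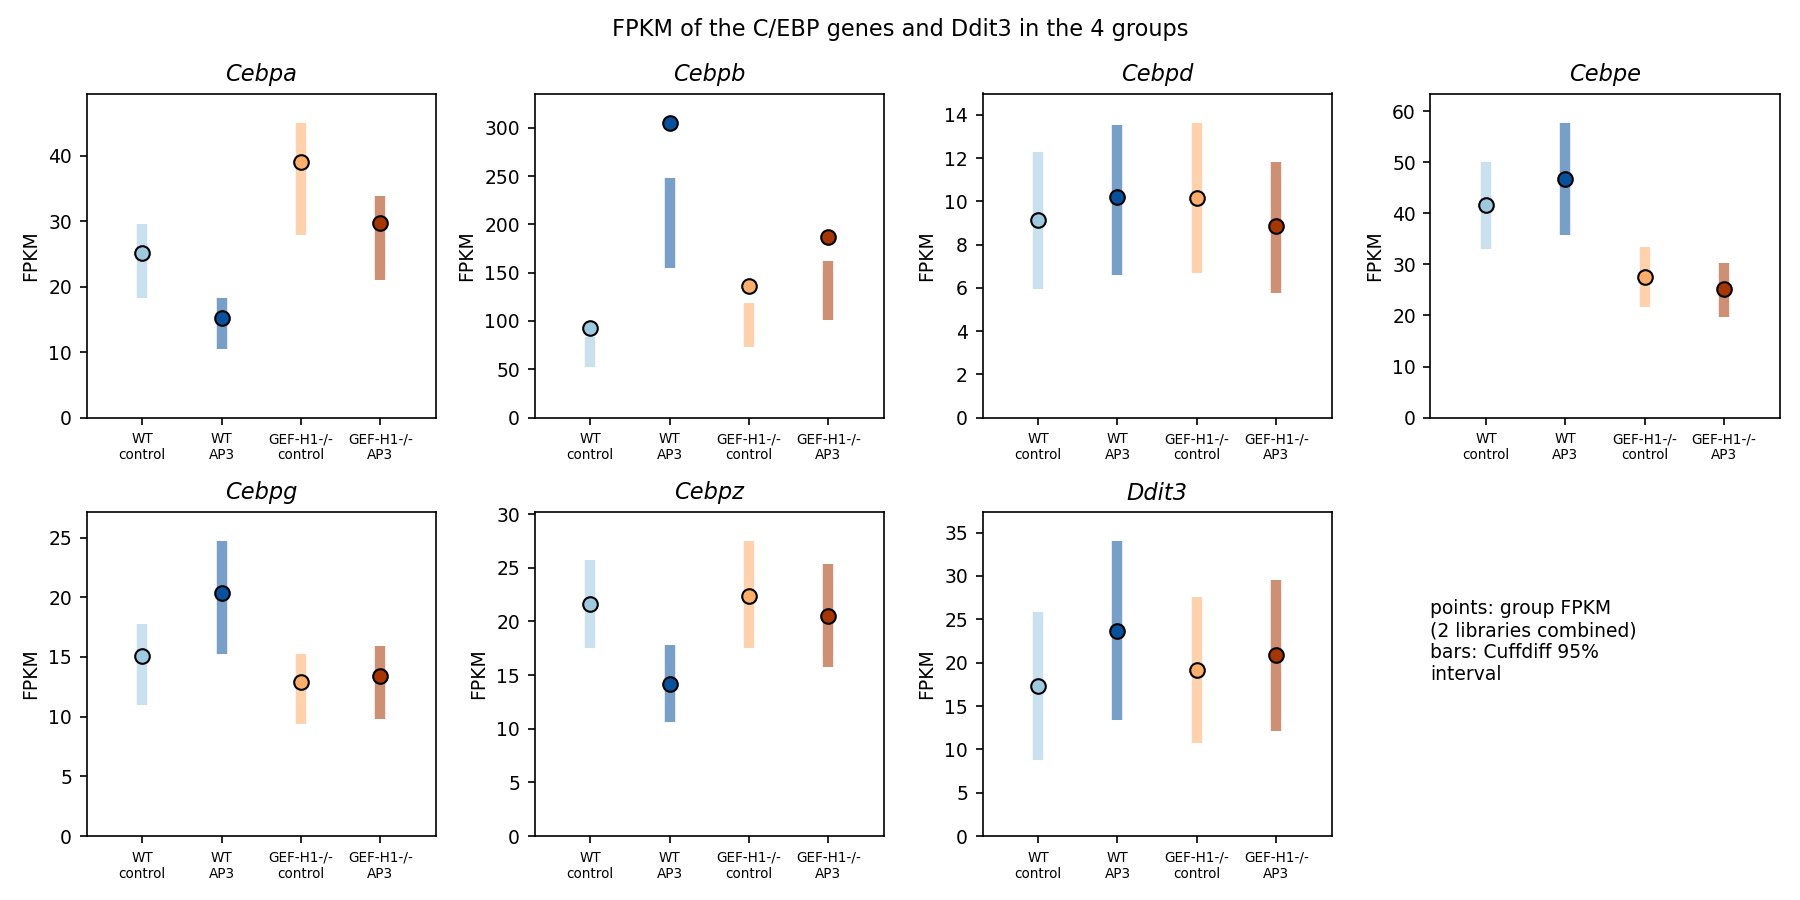
FPKM of each C/EBP gene and *Ddit3* (points, linear axes from 0) with the Cuffdiff 95% interval (bars) in the 4 groups, each point combining 2 libraries. *Cebpb* ran from 92.2 to 305 FPKM and each of its points sits above its bar; *Cebpa* was lowest and *Cebpb* highest in AP3-treated WT DCs, and *Cebpe* was lower in both knockout groups.

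Without drug, *Cebpb* in knockout DCs exceeded WT by a log2 difference of 0.56, whereas under AP3 it stood -0.70 from WT. Neither difference reached the threshold, and the intervals overlapped in both. No member was called between genotypes, where 1.88% of all genes were called in control and 4.06% in AP3-treated cells. The comparisons share groups, since each control group serves both the drug and the genotype comparison.

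*Cebpa* had lower values with AP3 in both genotypes, without reaching the threshold. Its level was 25.1 FPKM (interval 18.2 to 29.6) in control WT and 15.2 FPKM (10.5 to 18.3) in AP3-treated WT DCs. In knockout DCs it was 39.1 FPKM (27.9 to 45.0) in control and 29.7 FPKM (21.0 to 33.9) with AP3. Both knockout groups were thus above both WT groups, and in each genotype the AP3 value was the lower of the pair. Neighbouring groups in this order had overlapping intervals, while AP3-treated WT DCs lay apart from both knockout groups. The log2 difference with AP3 was -0.69 in WT and -0.39 in knockout DCs, and that of knockout against WT was 0.62 in control and 0.93 in AP3-treated cells. None of these passed the threshold on the deposited scale, and only the AP3-treated difference passed it after rescaling to equal sums, at 1.17. Intervals lay apart between genotypes under AP3 for 2 of the 7 genes, *Cebpa* and *Cebpe*, and for 13.7% of all genes. In control cells this held for 0 of the 7 against 4.74%, and for AP3 in knockout DCs for 0 of the 7 against 3.7%.

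The promoters of *Cebpb* and *Cebpa* are shown because these genes had the highest and the lowest log2 difference with AP3 in WT DCs among the 7. The sequences are the 250 bases before the RefSeq start (GRCm38.p6), read on the gene's own strand, and capitals mark matches to searched motifs. The *Cebpb* window is chr2:167688665-167688914 on the plus strand, before a gene that spans 167688915 to 167690418 on chromosome 2. The *Cebpa* window is chr7:35119043-35119292 on the plus strand, before a gene at 35119293 to 35121928 on chromosome 7.
Cebpb: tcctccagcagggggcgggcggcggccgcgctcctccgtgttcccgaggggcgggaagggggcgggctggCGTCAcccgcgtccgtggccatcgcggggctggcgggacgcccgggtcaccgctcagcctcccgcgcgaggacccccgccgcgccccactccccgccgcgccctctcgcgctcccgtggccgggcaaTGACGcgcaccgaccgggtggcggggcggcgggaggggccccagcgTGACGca
Cebpa: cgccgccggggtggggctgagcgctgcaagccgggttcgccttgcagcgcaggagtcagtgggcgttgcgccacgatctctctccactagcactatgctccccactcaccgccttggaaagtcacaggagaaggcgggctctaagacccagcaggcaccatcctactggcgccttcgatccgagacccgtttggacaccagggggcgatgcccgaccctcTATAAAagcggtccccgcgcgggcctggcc
The motifs searched on both strands were TGACG (a CRE core), TGANTCA (an AP-1 site), CCAAT (bound by NF-Y), TATAAA (a core promoter element), TTGCNNAA (a C/EBP site), TGATGNAAT (a C/EBP-ATF site) and GGANTTTCC (an NF-κB site). *Cebpb* held 3 matches to TGACG, starting 180 bases (minus strand), 53 bases and 7 bases before the start, a motif found in 17.8% of 32851 promoter windows of this length. The *Cebpa* window held 1 TATAAA, 30 bases before the start, found in 12.4% of windows. The *Cebpb* window was 81.6% G and C and the *Cebpa* window 66.4%, where the median of all windows was 52.4% and the 90th percentile 69.2%. Windows were also found for *Cebpg* and *Ddit3*, so 4 of the 7 genes matched. *Cebpg* held 2 CCAAT matches, 89 and 28 bases before the start (33.8% of windows hold one). *Ddit3* held a CCAAT match at 77 bases and a TGANTCA match, read on both strands, at 242 bases (6.75% of windows). No marked match overlapped another motif. The other motifs were in 9.56% (TTGCNNAA), 0.816% (TGATGNAAT) and 1.07% (GGANTTTCC) of windows, and these letters did not occur in the 4 windows.

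**Figure D2:**
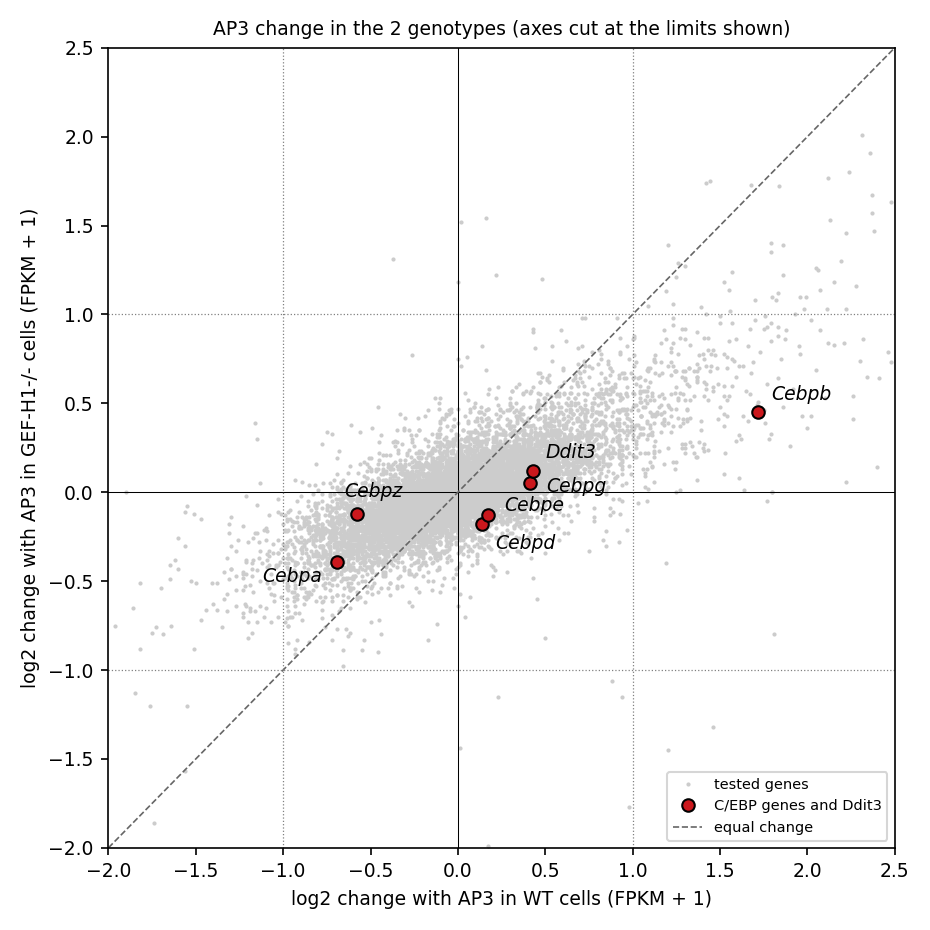
Log2 change with AP3 in WT (horizontal) and knockout DCs (vertical), on FPKM + 1, for the C/EBP genes and *Ddit3* (red) and for all genes tested that lie within the axes (grey), with the threshold as dotted lines and equal change dashed. *Cebpb* stood at 1.72 and 0.45, below the line, and the 6 other genes lay inside the threshold on both axes; *Cebpd* and *Cebpe* are right of 0 on the deposited scale and at -0.11 after rescaling to equal sums.

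The *Cebpe* values were ordered by genotype, with little difference by drug. Its level was 41.6 FPKM (33.0 to 50.0) in control and 46.8 FPKM (35.8 to 57.7) in AP3-treated WT DCs. In knockout DCs it was 27.6 FPKM (21.7 to 33.5) in control and 25.1 FPKM (19.6 to 30.4) with AP3. Both knockout values were below both WT values. The log2 difference of knockout against WT was -0.58 in control cells, with intervals that overlapped, and -0.87 under AP3, with intervals apart. Neither passed the threshold. With AP3 the log2 difference was 0.17 in WT, or -0.11 after rescaling to equal sums, and -0.13 in knockout DCs.

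The 20 myeloid and granulocyte genes listed for control by C/EBPα or C/EBPε were all measured. None passed the threshold with AP3 in either genotype, where 4.94% (WT) and 1.08% (knockout) of all genes did. The medians were 0.06 in WT (-0.21 after rescaling to equal sums) and -0.07 in knockout DCs. Between genotypes, 4 were higher and 4 lower in control knockout than in control WT DCs, and 2 were higher and 5 lower under AP3, or 6 and 4 after rescaling. All genes tested were called at 1.88% between control and 4.06% between AP3-treated genotypes. The 4 lower genes in control cells were *Camp*, *Fcnb*, *Ltf* and *Ngp*, joined by *S100a8* under AP3, and the 4 higher ones *Csf3r*, *Mpo*, *Elane* and *Mmp9*. *Camp* encodes the cathelicidin antimicrobial peptide and had 189 FPKM in control WT and 15.0 FPKM in control knockout DCs, a log2 difference of -3.57. *Ltf*, which encodes lactoferrin, had 399 and 145 FPKM, a difference of -1.46. *Ngp*, the neutrophilic granule protein, had 1707 and 702 FPKM, a difference of -1.28. *Fcnb*, which encodes ficolin B, had 7.91 and 1.08 FPKM, a difference of -2.10. The higher genes included *Mpo*, the myeloperoxidase of primary granules, at 26.4 and 63.1 FPKM (log2 1.23). *Elane*, neutrophil elastase of the same granules, had 20.7 and 45.9 FPKM (log2 1.11), but its intervals, 0 to 93.1 and 0 to 152 FPKM, included 0 and overlapped, and its call was lost with interval midpoints. The intervals of the 7 other called genes lay apart. *Csf3r*, the G-CSF receptor, had 11.3 and 30.7 FPKM (log2 1.37), and *Mmp9*, a gelatinase, 66.7 and 138 FPKM (log2 1.04). The secondary granule genes of this list did not all move together. *Camp*, *Ltf* and *Ngp* encode proteins of these granules. *Mmp8*, a collagenase of the same granules, had 55.2 and 72.3 FPKM (log2 0.38), with overlapping intervals. *Lcn2* and *Hp*, listed below with the inflammatory and acute-phase genes, were lower in control knockout than in control WT DCs. Their log2 differences were -0.66, with overlapping intervals, and -0.87, with intervals apart. The primary granule protease genes *Prtn3* and *Ctsg* were above 0, as *Mpo* and *Elane* were. Their log2 differences were 0.53 and 0.81, under the threshold.

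The labels name no sort of these cultures, and in bulk RNA fewer cells of a type and less RNA per cell cannot be told apart. Of 13 neutrophil and precursor markers, most of which also stand in the myeloid list, 12 were tested, 3 were higher and 3 lower past the threshold in control knockout DCs, and none was at 0. In all, 7 of the 12 were above 0 in this comparison (median 0.24). Their summed FPKM was 32662 in control WT, 38606 in AP3-treated WT, 22149 in control knockout and 22559 in AP3-treated knockout DCs. The calcium-binding protein genes *S100a8* and *S100a9* made up most of each sum, and *S100a8* alone, with 19400, 23110, 10860 and 11200 FPKM in the same group order, most of its difference between genotypes, so that the sums do not describe the other markers. Like those of *Cebpb*, the *S100a8* values lay above the upper bounds of their own intervals in all 4 groups (16470, 20260, 8912 and 9227 FPKM). All 7 basophil and mast cell markers were higher in control knockout DCs, 2 of them past the threshold (*Fcer1a* and *Prss34*), with sums of 198 and 203 FPKM in WT and 384 and 368 FPKM in knockout DCs. Macrophage markers (8 of 9 tested) summed to 809, 665, 636 and 550 FPKM in the same group order, of which the monocyte gene *Ly6c2* made up 448, 454, 231 and 212 FPKM. Against these sums, 5 of the 8 were above 0 in control knockout minus WT DCs (median 0.04) and 7 of 8 under AP3 (median 0.46), where *Ccr2*, a chemokine receptor gene, was higher in knockout DCs (log2 1.30) and *Ly6c2* had a log2 difference of -1.10. With AP3 in WT DCs, *Ccr2* fell from 135.7 to 37.8 FPKM (log2 -1.82) and *Mertk*, an efferocytosis receptor gene, from 5.46 to 0.778 FPKM (log2 -1.86), and their log2 differences in knockout DCs were -0.51 and -0.65. Lymphoid markers (6 of 9 tested) summed to 20.6, 20.3, 13.5 and 13.3 FPKM. The part of these cell type differences in the levels of *Cebpe*, *Cebpa* and the granule genes was not tested.

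**Figure D3:**
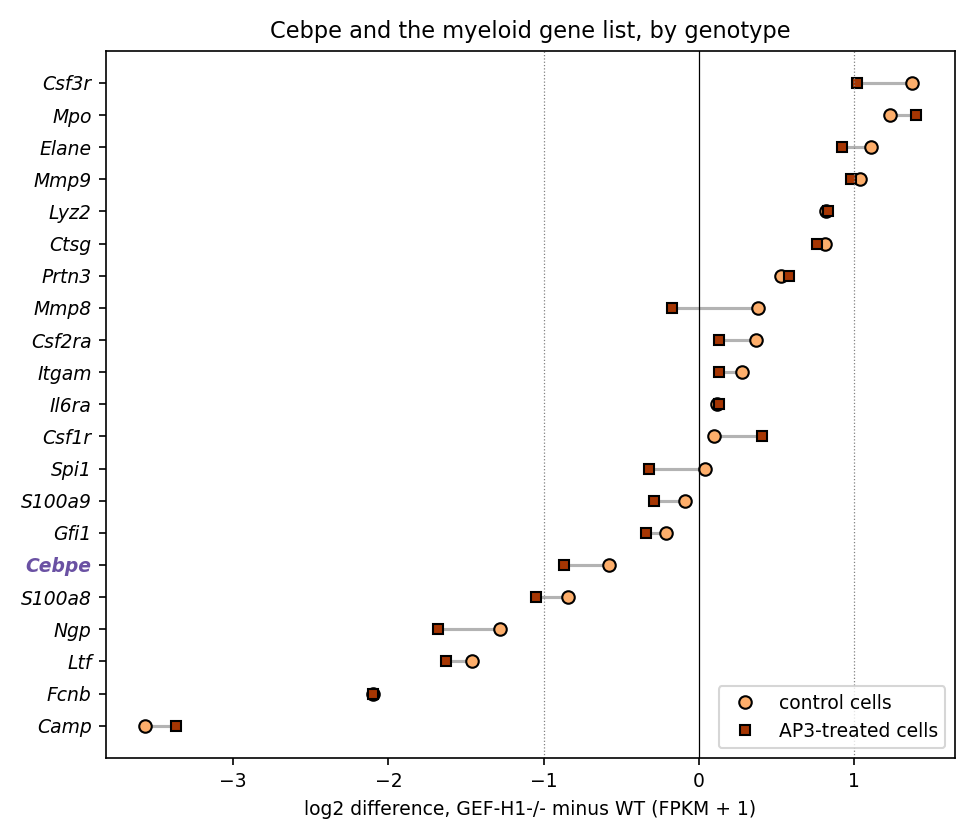
Log2 difference of knockout minus WT DCs (FPKM + 1) for *Cebpe* (purple) and the 20 listed myeloid genes, in control cells (circles) and AP3-treated cells (squares), with dotted lines at the threshold. *Camp*, *Fcnb*, *Ltf* and *Ngp* lie left of -1 and *Csf3r* and *Mpo* right of 1 in both states, with *Cebpe* at -0.58 and -0.87.

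*Cebpg* and *Ddit3*, whose products join the response to amino acid and protein stress, were highest in AP3-treated WT DCs, without passing the threshold. *Cebpg* had 15.1 FPKM (11.0 to 17.8) in control WT, 20.4 (15.3 to 24.7) in AP3-treated WT, 12.9 (9.39 to 15.2) in control knockout and 13.4 FPKM (9.81 to 15.9) in AP3-treated knockout DCs. Its log2 difference with AP3 was 0.41 in WT and 0.05 in knockout DCs, and -0.57 between genotypes under AP3. *Ddit3* had 17.3 FPKM (8.75 to 25.9), 23.7 (13.4 to 34.0), 19.2 (10.8 to 27.6) and 20.8 FPKM (12.2 to 29.5) in the same group order. Its log2 difference with AP3 was 0.43 in WT and 0.12 in knockout DCs, and all 4 intervals overlapped. The *Ddit3* intervals spanned 83.3% to 98.9% of its FPKM, the widest of the 7 genes.

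Of 24 stress response genes set around CHOP, 23 were tested. With AP3, 3 rose in WT DCs and 1 in knockout DCs, or 2 and 0 after rescaling to equal sums, and none fell. On the deposited scale 4.94% of all genes were called in WT and 1.08% in knockout DCs. The medians were 0.36 in WT, or 0.13 after rescaling, and 0.05 in knockout DCs. *Slc7a11*, the cystine transporter, rose in WT DCs from 12.8 to 53.4 FPKM (log2 1.98) and in knockout DCs from 11.3 to 24.1 FPKM (log2 1.03). *Ppp1r15a*, a CHOP target that directs eIF2α dephosphorylation, rose in WT DCs from 11.6 to 31.9 FPKM (log2 1.38) and had 13.4 and 22.4 FPKM in knockout DCs (log2 0.70). *Atf3*, a bZIP repressor that can pair with CHOP, rose in WT DCs from 78.8 to 185 FPKM (log2 1.22) and had 101 and 168 FPKM in knockout DCs (log2 0.73). *Atf4*, the activator upstream of *Ddit3*, had a log2 difference of 0.70 in WT and 0.31 in knockout DCs. *Trib3*, a pseudokinase induced by ATF4 and CHOP, had log2 differences of 0.92 and 0.45. Between genotypes under AP3, 3 of the 23 genes were lower in knockout DCs, *Cars* (log2 -1.18), *Trib3* (log2 -1.13) and *Slc7a11* (log2 -1.12), or 0 after rescaling. Here 4.06% of all genes were called. In control cells *Cars* (log2 -0.83) and *Trib3* (log2 -0.65) were also lower in knockout DCs, with intervals apart. The control difference of *Slc7a11* was -0.17, with overlapping intervals.

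*Cebpd* varied least. It had 9.13 FPKM (5.94 to 12.3) in control WT, 10.2 (6.59 to 13.5) in AP3-treated WT, 10.2 (6.68 to 13.6) in control knockout and 8.85 FPKM (5.74 to 11.8) in AP3-treated knockout DCs. The 4 values spanned 0.18 on the log2 scale and all intervals overlapped. It was the least abundant member in every group.

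The 20 inflammatory and acute-phase genes listed for control by C/EBPβ or C/EBPδ were measured beside these 2 factors, and 16 passed the filter. With AP3, 7 rose in WT DCs and 4 in knockout DCs, with medians of 0.64 and 0.47 where the median of all genes was 0.00 and -0.01. None fell past the threshold. In WT DCs *Lpl* (log2 -0.81) and *Hp* (log2 -0.60) were lower with AP3, with intervals apart. *Tnf* had a log2 difference of 0.47 in both genotypes. The shares of all genes called were 4.94% in WT and 1.08% in knockout DCs. The WT median was 0.36 after rescaling to equal sums and 1.26 with a filter of 5 FPKM, and the knockout median was 0.24 with a pseudocount of 5 FPKM. *Il1b*, the inflammatory cytokine, rose in WT DCs from 25.2 to 242 FPKM (log2 3.21) and in knockout DCs from 22.9 to 56.2 FPKM (log2 1.26). *Il1rn*, its natural antagonist, rose in WT DCs from 101 to 778 FPKM (log2 2.93) and had 197 and 274 FPKM in knockout DCs (log2 0.47). *Clec4e*, which encodes the receptor Mincle, rose in WT DCs from 4.49 to 36.9 FPKM (log2 2.79) and had 6.68 and 11.5 FPKM in knockout DCs (log2 0.70). *Il6* rose in WT DCs from 11.4 to 77.8 FPKM (log2 2.67) and in knockout DCs from 13.0 to 41.0 FPKM (log2 1.59). The AP3 change was lower in knockout DCs past the threshold for 5 of the 16 genes (*Il1rn*, *Clec4e*, *Il1b*, *Ptgs2* and *Il6*), or 4 lower and 1 higher after rescaling to equal sums. For all genes tested, 1.9% were called for this difference, which was below 0 for 11 of the 16 genes and above 0 for 5. *Ptgs2* was low, with 0.306 and 3.93 FPKM in control and AP3-treated WT DCs and 0.776 and 1.66 FPKM in the corresponding knockout DCs. Between genotypes under AP3, *Il1b*, *Clec4e*, *Il1rn* and *Lcn2* were lower in knockout DCs, beside 4.06% of all genes called. In control cells the chemokine gene *Ccl2* was higher, with 34.8 FPKM in WT and 78.9 FPKM in knockout DCs, beside 1.88% of all genes. Intervals lay apart in control cells for 6 of the 16 genes, beside 4.74% of all genes. *Ccl2*, *Il1rn* (log2 0.96), *Nos2* (0.72), *Pla2g7* (0.71) and *Ptgs2* (0.44) were higher in knockout DCs and *Hp* (-0.87) lower. The control difference of *Lcn2* was -0.66, with overlapping intervals.

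*Cebpz* had its lowest value in AP3-treated WT DCs. It had 21.6 FPKM (17.5 to 25.7) in control WT, 14.2 (10.6 to 17.8) in AP3-treated WT, 22.4 (17.5 to 27.5) in control knockout and 20.5 FPKM (15.7 to 25.4) in AP3-treated knockout DCs. The intervals of all groups overlapped. The log2 difference with AP3 was -0.58 in WT and -0.12 in knockout DCs, and 0.51 between genotypes under AP3, none past the threshold. The 18 genes set beside it encode NOC and other nucleolar ribosome assembly proteins and the subunits of the CCAAT-binding factor NF-Y. None passed the threshold with AP3, where 4.94% (WT) and 1.08% (knockout) of all genes did. In WT DCs 17 of 18 were below 0 (median -0.33), and 5 had intervals apart, beside 16.8% of all genes. In knockout DCs the median was -0.04, and 0 had intervals apart, beside 3.7%. After rescaling to equal sums, 2 fell in WT DCs and the median was -0.60. In control cells 16 of the 18 were already above 0 in knockout minus WT DCs (median 0.36). None passed the threshold and 3 had intervals apart, beside 1.88% and 4.74% of all genes. Under AP3 the median was 0.63, and the intervals of 10 lay apart between genotypes, beside 13.7% of all genes. Past the threshold, 6 were higher in knockout than in WT DCs, or 7 after rescaling, beside 4.06% of all genes. By log2 difference they were *Noc2l* (1.21), *Wdr12* (1.13), *Nop56* (1.12), *Nop2* (1.07), *Nop58* (1.02) and, just past the threshold, *Rrp1b* (5.38 FPKM in WT and 11.8 FPKM in knockout DCs). For the NF-Y subunits *Nfya*, *Nfyb* and *Nfyc* this log2 difference was 0.08, 0.13 and -0.07.

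The make-up of the 6 bZIP members differed between the groups. Their summed FPKM was 200.5 in control WT, 421 in AP3-treated WT, 246 in control knockout and 285 in AP3-treated knockout DCs. *Cebpb* made up 46.0%, 72.4%, 55.7% and 65.7% of these sums. *Cebpa* made up 12.5%, 3.60%, 15.9% and 10.4%, and *Cebpe* 20.8%, 11.1%, 11.2% and 8.81%. The FPKM ratio of *Cebpb* to *Cebpa* was 3.67 in control WT and 3.50 in control knockout DCs, and 20.1 and 6.31 with AP3. FPKM is a level per transcript length, and these shares are of RNA, not of protein or of dimers.

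**Figure D4:**
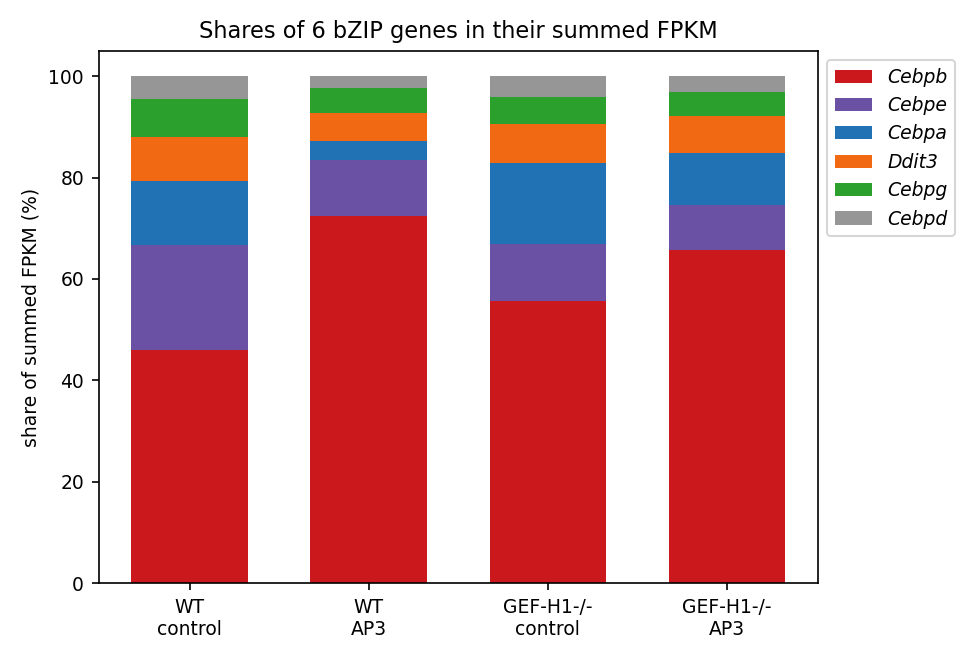
Share of each of 6 bZIP genes in their summed FPKM (%, bars stacked to 100) in the 4 groups. The *Cebpb* share was 46.0% in control WT and 72.4% in AP3-treated WT DCs, and the *Cebpa* share 12.5% and 3.60%.

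Of 24 bZIP genes whose products can pair or share sites with C/EBP factors, some of which also stand among the stress genes, 20 were tested. With AP3, 7 rose in WT and 2 in knockout DCs, with medians of 0.62 and 0.23, and none fell. Of all genes tested, 4.94% were called with AP3 in WT and 1.08% in knockout DCs. After rescaling to equal sums, 5 rose in WT DCs and the median was 0.37, and without a filter on low values the knockout median was 0.13. By log2 change, the 4 with the largest rise in WT DCs were *Fosl2* (2.22), *Jun* (1.79), *Crem* (1.79) and *Junb* (1.39), of which *Fosl2* (1.46) and *Jun* (1.40) also rose in knockout DCs. *Crem*, a cAMP-response factor, had 16.1 and 58.0 FPKM in WT and 8.83 and 16.8 FPKM in knockout DCs. *Nfil3*, a repressor bZIP factor, had log2 differences of 0.81 and 0.08. Between genotypes under AP3, 4 of the 20 were lower in knockout DCs, namely *Crem* (log2 -1.73), *Junb* (log2 -1.20), *Nfe2l2* (log2 -1.03) and *Fosl2* (log2 -1.02), or 1 after rescaling to equal sums. This comparison called 4.06% of all genes.

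Among 26 regulators of C/EBP transcription, translation or turnover, 3 rose and 1 fell with AP3 in WT DCs, or 1 rose and 1 fell after rescaling to equal sums, and 1 rose in knockout DCs. The background over all genes was 4.94% called in WT and 1.08% in knockout DCs. *Trib1*, a pseudokinase that targets C/EBPα for degradation by the ligase COP1, rose in WT DCs from 9.94 to 60.2 FPKM (log2 2.48) and in knockout DCs from 10.2 to 33.7 FPKM (log2 1.63). Its relative *Trib2* fell from 5.21 to 1.52 FPKM in WT DCs, a log2 change of -1.30, and had 4.90 and 3.81 FPKM in knockout DCs (log2 -0.30). The NF-κB genes *Rela* and *Nfkb1* rose in WT DCs, by 1.22 and 1.03 on the log2 scale, and had log2 differences of 0.66 and 0.38 in knockout DCs. None of the 26 genes passed the threshold between control genotypes, beside 1.88% of all genes. Under AP3 none did on the deposited scale, beside 4.06%. Intervals lay apart under AP3 for 3 of the 26, beside 13.7% of all genes. *Trib1* (log2 -0.82) and *Nfkb1* (log2 -0.87) were lower in knockout DCs and *Trib2* (log2 0.93) higher. *Trib2* alone passed the threshold for the genotype difference in the AP3 change (log2 1.01), where 1.9% of all genes did. This call was lost with interval midpoints and with a pseudocount of 5 FPKM.

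**Figure D5:**
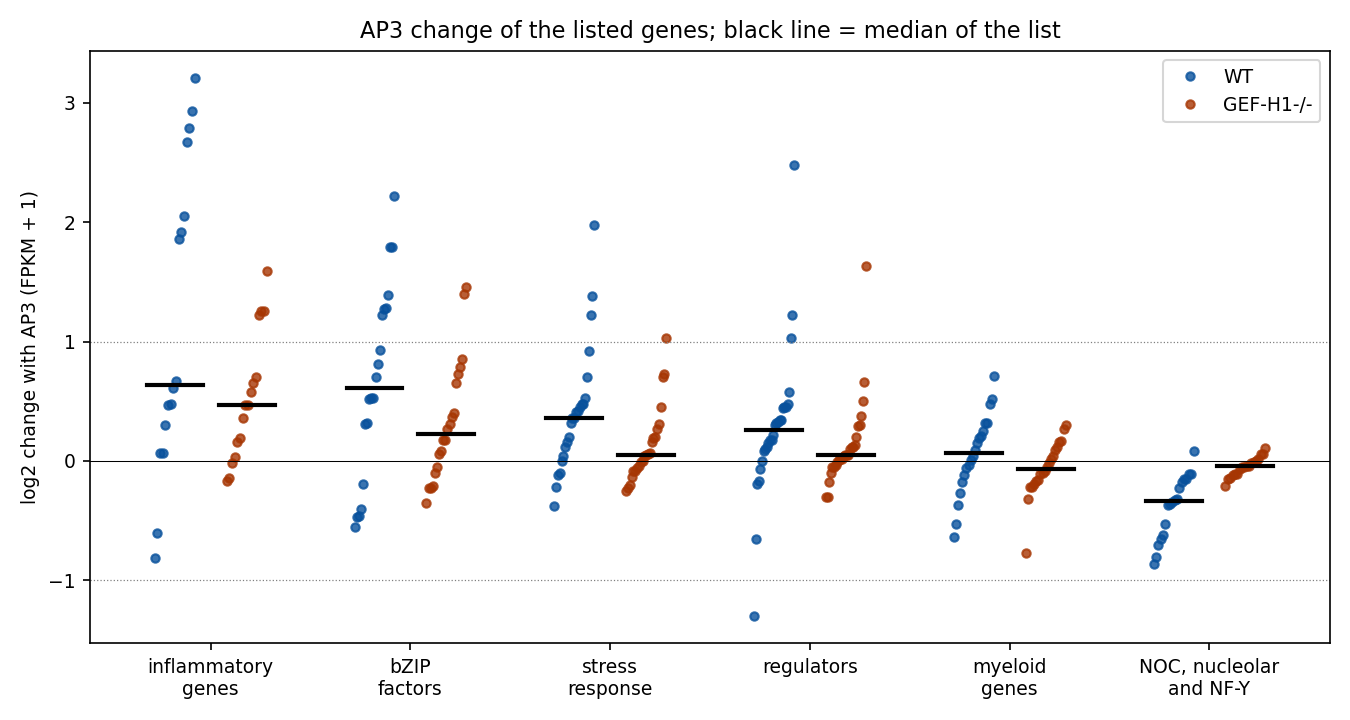
Log2 change with AP3 (FPKM + 1) of each tested gene of the 6 lists in WT (blue) and knockout DCs (brown), ordered by value within a list, with black lines at the list medians and dotted lines at the threshold. Medians in WT DCs ran from -0.33 (NOC, nucleolar and NF-Y genes) to 0.64 (inflammatory genes), or -0.60 and 0.36 after rescaling to equal sums, and that of the myeloid genes, 0.06, was -0.21 in that scaling.

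Genes with the most similar pattern were ranked by the distance between centred log2 values over the 4 groups, among 8817 genes that reached 5 FPKM. For *Cebpb* these were *Il1f9* (distance 0.11), which encodes IL-36γ, *Srxn1* (0.21), which encodes sulfiredoxin, and *Clcf1* (0.21), a cytokine of the IL-6 family. *Il1f9* had 8.90, 35.0, 14.1 and 20.1 FPKM in control WT, AP3-treated WT, control knockout and AP3-treated knockout DCs. For *Cebpa* they were *Fut7* (0.12), *Snhg5* (0.12) and *Frmd4a* (0.13). For *Cebpe* they were *Nupr1* (0.02), *Prdx5* (0.07) and *Gyg* (0.08). For *Cebpg* they were *Atp6v0d1* (0.01), *Triobp* (0.02) and *Slc39a1* (0.04), and for *Cebpz* *Fads1* (0.01), *Mars2* (0.01) and *D6Wsu163e* (0.02). *Cebpd* and *Ddit3* spanned less than 0.5 and were not matched. With only 4 values per gene and so many genes, close matches are common, and they carry no statement on shared control.

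Several members overlap a gene on the opposite strand, and the strand setting behind the Cuffdiff FPKM is not given in the sources used here, although the libraries were stranded and a separate count that the study made for gene set analysis used strand. *Cebpb* shares 312 exon bases with *Tmem189* in the GENCODE annotation, which had 40.8, 79.2, 42.0 and 58.6 FPKM in the group order above, a log2 difference of 0.94 with AP3 in WT DCs. *Cebpd* shares 562 exon bases with *Spidr*, which had 6.75 to 6.95 FPKM in the 4 groups. *Cebpz* shares 171 with *Cebpzos* (4.01 to 5.62 FPKM), and *Ddit3* shares 68 with *Mars* (27.7 to 36.9 FPKM). The part of such shared reads in the members' values was not tested.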

How the data were processed

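Strand-specific libraries were made by the authors from polyadenylated RNA of BMDCs and sequenced as paired ends. FPKM were computed by the authors with Cuffdiff (1.05 in the submitters' processing notes, mm10), combining the 2 libraries of a group into 1 deposited value. The deposited bounds of each 95% interval are in FPKM too. Aligner and annotation of this table are not given in the sources used here. Group columns were matched by name. Those of WT DCs name no genotype and were assigned by elimination, with 0 per-sample columns unused. Depth per library is unknown, so no interval from counts is given.

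Genes with a failed status (107) or under 1 FPKM in all groups were left out. Log2 ratios used a pseudocount of 1 FPKM, which understates changes of low genes. With 1 value per group there was no test, and the computation was tested on simulated data. Alternatives were pseudocounts of 0.1 and 5 FPKM, no filter or one of 5 FPKM, 2 rescalings of the groups, and interval midpoints, the last added for the lists and all genes after the data were seen. The members and lists were chosen with earlier results of these data known. Named genes were the C/EBP genes, *Arhgef2*, up to 4 genes per list with the largest change in WT DCs, genes with a direct relation to a C/EBP factor, and the 3 nearest patterns per member. Other named genes were chosen after their values were seen. The neutrophil marker *Ly6g* is not reported here. Promoters came from RefSeq (GRCm38.p6) and gene positions from GENCODE, without conversion. Python 3.11.15, pandas 2.3.3, numpy 2.4.6 and matplotlib 3.10.9 were used.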

Additional observations from a re-analysis of the deposited data

Results flagged for a closer look

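The AP3 difference of *Cebpd* had opposite signs in the genotypes, 0.14 for WT and -0.18 for knockout (GEF-H1-/-) DCs, a difference of -0.32. For *Cebpe* the values were 0.17 for WT and -0.13 for knockout DCs, a difference of -0.30. Neither difference was tested, since each group has 1 combined value, and the intervals of both genes overlapped between control and AP3 in each genotype. After rescaling to equal sums of FPKM the WT value was -0.11 for both genes, so that the signs were no longer opposite.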

How the results depend on the processing

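Of 245 member values under 7 alternatives, all 245 moved by less than the error of the intervals, and 251 of 280 counts stayed within 1.5 times. The count of member values is a weak check. The no-filter and 5 FPKM filter settings cannot change a member value. The error combined the widths of all intervals in a comparison, which were wide against the shifts. The rise of *Cebpb* in WT DCs ran from 1.44 to 1.72 and its genotype difference from -1.27 to -1.03. The exceptions follow. With a pseudocount of 0.1 or 5 FPKM, the genes called were 956 or 318 for AP3 in WT DCs, 212 or 77 for AP3 in GEF-H1-/- DCs, 372 or 101 between control genotypes, 801 or 206 between AP3-treated genotypes, and 387 or 123 for the difference between genotypes. Lower pseudocounts call more genes of low FPKM by construction. Rescaling to equal sums moved the share of rises among calls from 74.1% to 38.9% for AP3 in WT DCs, from 49.2% to 76.7% between AP3-treated genotypes, and from 28.2% to 54.6% for the difference. Between AP3-treated genotypes this rescaling gave 1 C/EBP gene (*Cebpa*), 1 bZIP partner, 1 regulator and 0 stress genes past the threshold. For AP3 in WT DCs it gave 2 regulators and 2 NOC, nucleolar or NF-Y genes, and for AP3 in GEF-H1-/- DCs 0 stress genes. With a pseudocount of 5, 2 bZIP partners, 2 NOC, nucleolar or NF-Y genes and 1 stress gene were called between AP3-treated genotypes, 0 stress genes for AP3 in GEF-H1-/- DCs, and 3 inflammatory genes and 0 regulators for the difference. With a pseudocount of 0.1, 3 inflammatory genes and 1 stress gene were called between control genotypes, 1 regulator between AP3-treated genotypes and 1 myeloid gene for AP3 in GEF-H1-/- DCs. With interval midpoints, which were added for lists after the data were seen, 0 regulators (*Trib2* lost) and 1 bZIP partner (*Crem*) were called for the difference. *Ddit3* and *Cebpd* between AP3-treated genotypes ran from -0.18 to 0.07 and from -0.20 to 0.05. Apart from the effect of pseudocount, the cause was not tested. No paired analysis was possible because the deposited table combines the libraries of each group, and for the same reason leaving out a replicate could not be run.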
